A study of Rattus norvegicus with 11 samples.

Results

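The epithelial sodium channel, aquaporin and urea transporter genes were followed in rat bladder tissues after partial bladder outlet obstruction (PBOO). The 7 genes were chosen by symbol from the 18507 genes of the expression table, and all 7 were present. They were the channel subunit genes Scnn1a, Scnn1b and Scnn1g, the water channel genes Aqp1, Aqp3 and Aqp4, and the urea transporter gene Slc14a1. Whole-tissue RNA-seq was available from 11 samples, namely 3 normal and 3 PBOO bladders at week 4 and 3 normal and 2 PBOO bladders at week 5. All samples came from female Sprague-Dawley rats, for which the methods give a single approximate age, and the week 5 normal columns are named adult. All week 4 columns carry the word Input and no week 5 column does, and the labels do not say what it marks. PBOO was made by tying a suture around the bladder neck and urethra over a tube that was then withdrawn. The labels call the controls normal, while the methods describe animals that had the incision without the tie. The labels do not say whether each sample was 1 animal, so the p-values measure the spread between these samples.

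The epithelial sodium channel (ENaC) admits sodium from the lumen through the apical membrane of tight epithelia and is built from α, β and γ subunits. Aquaporins pass water, and Aqp3 also passes glycerol, while Slc14a1 encodes the facilitative urea transporter UT-B. In the bladder the urothelium bears ENaC, Aqp3 and UT-B, whereas Aqp1 is typical of capillary endothelium.

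The 250 bases before the start of the genes are shown for Scnn1b and Scnn1g, which are next to each other on chromosome 1, for Aqp1, whose difference at week 4 went the other way from theirs, and for Aqp3, whose difference changed sign between weeks. The sequences are from a RefSeq promoter table (GRCr8), in which 6 of the 7 genes were matched. They cover chr1:185861126-185861375 on the + strand, chr1:185735975-185736224 on the + strand, chr4:85812534-85812783 on the + strand and chr5:61040684-61040933 on the − strand, all upstream of the transcribed part. Capitals mark matches to a GC box (GGGCGG, or CCGCCC on the other strand) and a TATA box (TATAAA, or TTTATA on the other strand).
Scnn1b: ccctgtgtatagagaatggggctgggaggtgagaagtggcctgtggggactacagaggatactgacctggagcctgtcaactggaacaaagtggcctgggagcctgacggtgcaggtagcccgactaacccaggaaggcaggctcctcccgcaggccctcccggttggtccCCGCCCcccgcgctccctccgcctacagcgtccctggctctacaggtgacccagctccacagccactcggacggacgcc
Scnn1g: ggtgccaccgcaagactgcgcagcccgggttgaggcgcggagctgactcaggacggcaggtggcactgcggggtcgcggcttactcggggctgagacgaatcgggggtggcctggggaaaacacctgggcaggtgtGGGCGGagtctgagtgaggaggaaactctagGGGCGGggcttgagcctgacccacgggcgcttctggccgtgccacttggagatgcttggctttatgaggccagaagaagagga
Aqp1: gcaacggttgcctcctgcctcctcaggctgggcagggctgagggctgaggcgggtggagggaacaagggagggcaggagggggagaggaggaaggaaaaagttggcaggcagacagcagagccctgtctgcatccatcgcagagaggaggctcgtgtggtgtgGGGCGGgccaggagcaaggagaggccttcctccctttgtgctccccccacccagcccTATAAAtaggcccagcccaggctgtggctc
Aqp3: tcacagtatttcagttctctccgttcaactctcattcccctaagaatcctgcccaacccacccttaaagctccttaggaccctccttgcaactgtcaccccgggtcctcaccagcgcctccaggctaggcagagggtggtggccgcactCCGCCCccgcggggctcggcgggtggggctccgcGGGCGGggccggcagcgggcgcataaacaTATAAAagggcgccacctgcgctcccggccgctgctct
The GC box matches began 79 bases before the start in Scnn1b, 114 and 83 bases before it in Scnn1g, 87 in Aqp1 and 101 and 67 in Aqp3. TATA box matches lay 30 bases before the start of Aqp1 and 38 before that of Aqp3, while the windows of Scnn1b and Scnn1g held none. Of all 33469 promoters of this length, 30.5% held the GC box and 12.9% the TATA box, and no matches overlapped in these windows. The letters TGTTCT, a half-site of the steroid receptors, occurred in 17.5% of all promoters, AACCNGTT (Grainyhead-like) in 1.76% and TGTTTAC (forkhead) in 3.21%, both strands searched, and in none of the 4 windows. In the order of genes on this assembly, Aqp3 is next to Aqp7 and Slc14a1 is next to Slc14a2.

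Levels are given as FPKM (fragments per kilobase of exon, scaled to all mapped fragments), which corrects for gene length. The order of genes rests on an annotation that is not given, so it holds only as far as each gene was captured. In normal bladder tissues Aqp3 was the highest of the 7 genes, at 305 ± 10.96 FPKM at week 4 and 286 ± 52.5 FPKM at week 5 (SD, n = 3 each). Of all genes in the table, 98.8% lay below it at week 4 and 99.0% at week 5. At week 4 the normal bladders then held Aqp1 (139 ± 6.65 FPKM), Slc14a1 (108 ± 24.4 FPKM), Scnn1b (61.8 ± 7.07 FPKM), Scnn1g (51.5 ± 4.07 FPKM) and Scnn1a (1.003 ± 0.0753 FPKM). Aqp1 and Slc14a1 overlapped there, with a lowest Aqp1 of 134 FPKM and a highest Slc14a1 of 136 FPKM, whereas Scnn1b and Scnn1g were separated by a gap of less than their SDs. At week 5 the normal order was Aqp3, Slc14a1, Aqp1, Scnn1b, Scnn1g and Scnn1a. The ranges of Aqp1 and Scnn1b overlapped there, and the lowest Scnn1b (43.5 FPKM) was above the highest Scnn1g (41.9 FPKM) by less than the SD of Scnn1b. In PBOO bladders of week 4 Aqp1 had the highest mean, but its range (159 to 451 FPKM) overlapped that of Aqp3 (125 to 249 FPKM), and in PBOO replicate 1 Aqp3 was above it. Aqp3 came first at week 5, and there the ranges of Scnn1g, Aqp1 and Scnn1b overlapped. The α subunit gene Scnn1a, without which ENaC conducts little, was below both other subunits in every sample. Aqp4, the water channel of astrocytes and of some epithelia, was listed at 0 in 7 of 11 samples and reached at most 0.124 FPKM. It did not pass the filter of a mean of at least 0.5 FPKM and was not tested, whereas the other 6 genes passed it at both weeks.

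**Figure D1:**
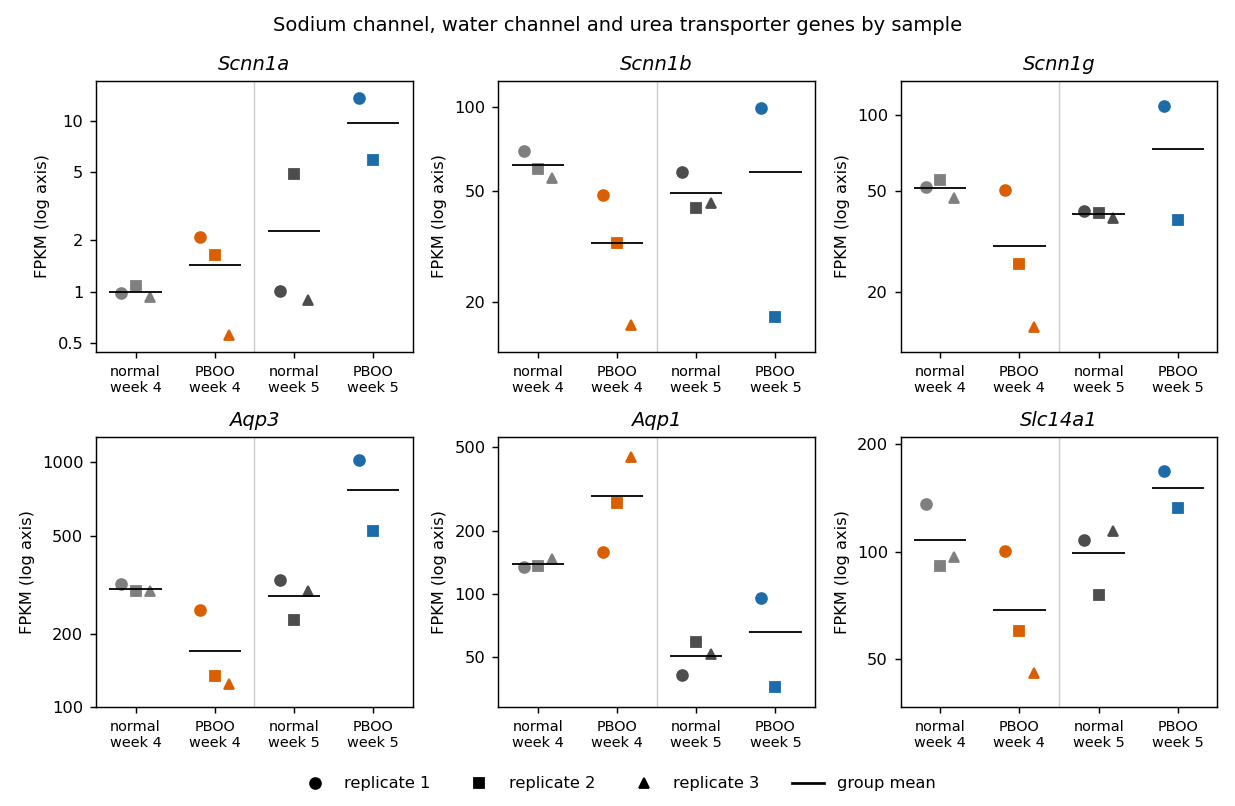
FPKM of the 7 genes except Aqp4 in each of the 11 samples, on log axes, with the group mean as a line. Aqp4 is not drawn. Aqp3 in PBOO samples lies below the normal samples at week 4 (125 to 249 against 298 to 318 FPKM) and above them at week 5 (525 and 1019 against 228 to 330 FPKM).

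Several facts of the libraries touch these genes. The sum of urothelial markers (23 genes) was 9035 to 11475 FPKM in normal and 5449 to 7054 FPKM in PBOO bladders at week 4, and 10398 to 13466 against 18191 and 18290 FPKM at week 5. Krt7 and Upk3b of this list were at 0 in every week 4 sample, while their normal means at week 5 were 799 and 70.2 FPKM. The sum thus rests on different genes at each week. The smooth muscle markers (11 genes) summed to 26344 to 28596 FPKM against 52257 to 83248 FPKM at week 4, and to 25540 to 29842 FPKM against 1005 and 1885 FPKM at week 5. Both PBOO samples of week 5 are labelled as bladder tissue, and the defining muscle markers were low in them, with all 11 lower at unadjusted p under 0.05. Fibroblast markers (8 genes) were also lower there, at 122 and 173 FPKM against 1521 to 1939 FPKM, and glial markers (10 genes) summed to 20.3 and 29.7 FPKM against 61.4 to 104 FPKM. Leukocyte markers (8 genes) were higher in the same samples, at 186 and 661 FPKM against 28.6 to 74.9 FPKM. By the same unadjusted p, 5 of 7 tested leukocyte genes were higher and 0 lower. Of all genes, 24.6% were higher and 18.8% lower by this rule at week 5. At week 4, normal replicate 1 stood apart from normal replicates 2 and 3 with lower sums of fibroblast markers (1088 against 4054 and 4125 FPKM) and of leukocyte markers (56.2 against 334 and 386 FPKM). In tissue of mixed cells, fewer cells of a type and less RNA per cell cannot be told apart.

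**Figure D2:**
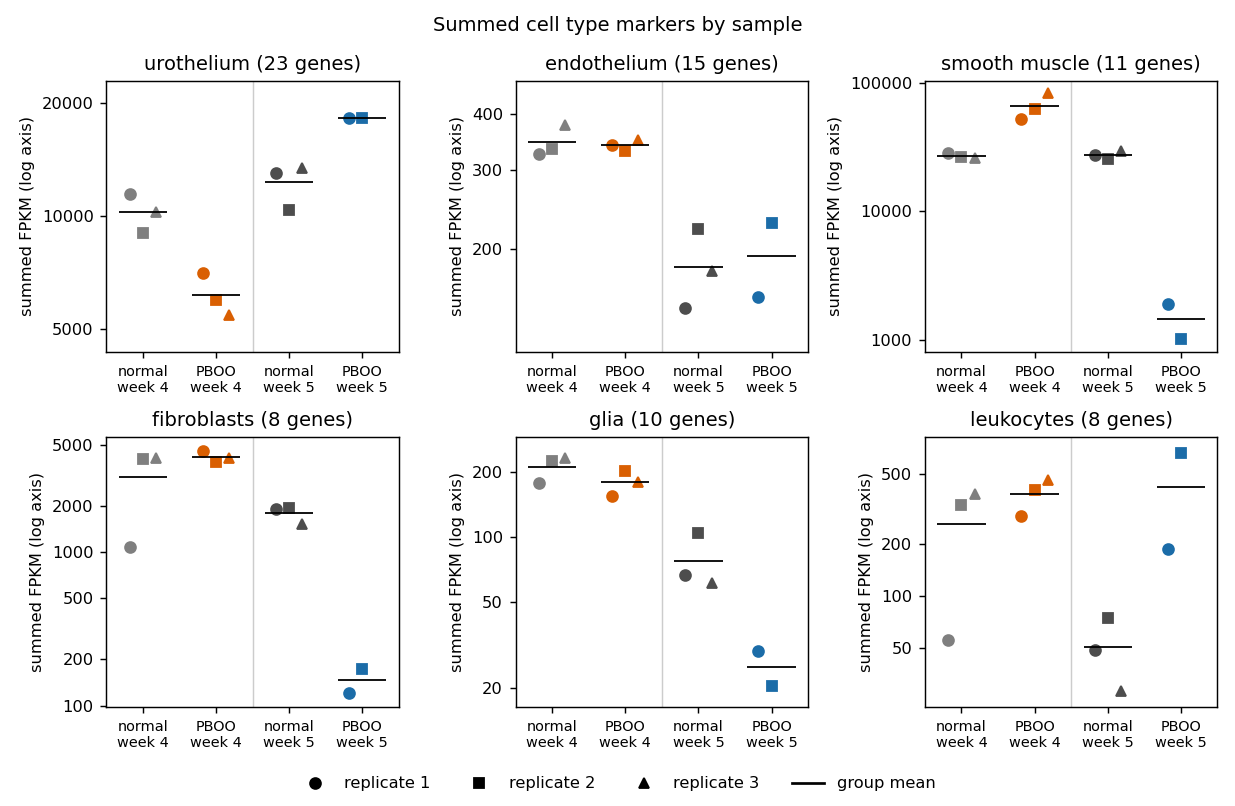
Summed FPKM of the markers of 6 cell types in each sample, on log axes, with the group mean as a line. The urothelial sum was lower in PBOO than in normal samples at week 4 and higher at week 5, while the smooth muscle sum was only 1005 and 1885 FPKM in the PBOO samples of week 5.

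At week 4 Aqp3, Scnn1b and Slc14a1 were lower in PBOO bladders and Aqp1 was higher at unadjusted p, Scnn1a and Scnn1g did not pass, and no member passed the adjusted threshold. Genes were compared with limma on log2(FPKM + 0.1), and a call needed a Benjamini-Hochberg adjusted p under 0.05 over all tested genes with a 2-fold change. Of the 6 tested members 0 were called, against 0.371% of the 11320 genes tested (42 genes). At an unadjusted p under 0.05, 3 members were lower, where the background was 26.2% of all genes, and 1 was higher, where it was 5.76%. All PBOO samples were below all normal samples for Aqp3 and Scnn1b, as for 34.9% of all genes, and above them for Aqp1, as for 6.63%. Over all tested genes the log2 fold change had a median of -0.25, and of -0.01 after median-ratio scaling. That scaling moved the unadjusted calls from 652 higher and 2969 lower to 1321 and 1018.

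Aqp3 read 318, 299 and 298 FPKM in the normal bladders of week 4 and 249, 135 and 125 FPKM in the PBOO bladders. All 3 PBOO samples were below all normal samples, and PBOO replicate 1 was the nearest to them. The log2 fold change was -0.92 (SE 0.25, 95% confidence interval -1.52 to -0.32, unadjusted p = 0.00843, limma adjusted p = 0.0817), and -0.67 after median-ratio scaling (unadjusted p = 0.0193). Its unadjusted p was under 0.05 whichever sample was left out, at most 0.0337.

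At week 4 the log2 fold changes of Scnn1b, Scnn1g and Slc14a1 were all negative, and that of Scnn1a was positive. No test compared these genes with each other. Scnn1b, the β subunit gene, read 69.6, 60.2 and 55.7 FPKM in normal and 48.6, 32.7 and 16.6 FPKM in PBOO samples. The groups did not overlap, and the log2 fold change was -1.04 (SE 0.36, unadjusted p = 0.0221, limma adjusted p = 0.111), with an unadjusted p of 0.0576 without normal replicate 1. Scnn1g, the γ subunit gene, read 52.1, 55.2 and 47.1 FPKM in normal and 50.7, 25.8 and 14.6 FPKM in PBOO samples. PBOO replicate 1 lay within the normal range and the other PBOO samples below it, and the log2 fold change of -0.94 (SE 0.40, unadjusted p = 0.0522, limma adjusted p = 0.160) did not pass. Slc14a1 read 136, 91.3 and 96.7 FPKM in normal and 100.5, 59.9 and 45.8 FPKM in PBOO samples. PBOO replicate 1 overlapped the normal samples, and the log2 fold change was -0.71 (SE 0.30, unadjusted p = 0.0484, limma adjusted p = 0.153), or -0.46 after median-ratio scaling (unadjusted p = 0.125). Its unadjusted p was between 0.0519 and 0.153 when any sample but PBOO replicate 1 was left out. Scnn1a read 0.989, 1.08 and 0.936 FPKM in normal and 2.10, 1.63 and 0.557 FPKM in PBOO samples. The PBOO samples lay on both sides of the normal ones, with a log2 fold change of 0.30 and a 95% confidence interval from -0.82 to 1.43 (limma adjusted p = 0.661). Without PBOO replicate 3 it was 0.83 (unadjusted p = 0.0211).

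Aqp1 read 134, 136 and 146 FPKM in the normal samples of week 4 and 159, 273 and 451 FPKM in the PBOO samples. All PBOO samples were higher than all normal samples, and they were spread more widely than the normal samples. The log2 fold change was 0.96 (SE 0.34, 95% confidence interval 0.15 to 1.76, unadjusted p = 0.0258, limma adjusted p = 0.117). Leaving out normal replicate 1, normal replicate 2 or PBOO replicate 2 gave unadjusted p of 0.0561, 0.0576 and 0.0623, and leaving out PBOO replicate 3 lowered the log2 fold change to 0.59 (unadjusted p = 0.0463). The endothelial sum was 325 to 378 FPKM in normal and 329 to 350 FPKM in PBOO samples, but its genes did not all stay level. Of its 15 genes, 1 was higher and 5 lower at unadjusted p under 0.05, against 5.76% and 26.2% of all genes. Their median log2 fold change was -0.24, against -0.25 over all genes. PBOO replicate 3, with the highest Aqp1, also had the highest smooth muscle sum (83248 FPKM).

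The size of these differences depended on which PBOO sample was left out. Without PBOO replicate 1, the log2 fold changes were -1.23 for Aqp3, -1.40 for Scnn1b, -1.40 for Scnn1g, -1.02 for Slc14a1 and 1.34 for Aqp1, with limma adjusted p of 0.01002, 0.0307, 0.0238, 0.0317 and 0.0188. The number of genes called among all genes was then 719. Without PBOO replicate 3 the log2 fold changes shrank to -0.74 for Aqp3, -0.63 for Scnn1b, -0.51 for Scnn1g, -0.45 for Slc14a1 and 0.59 for Aqp1, with unadjusted p of 0.0308, 0.0198, 0.127, 0.153 and 0.0463, and 0 members were called.

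At week 5 Aqp3 rose in PBOO bladders and was the only one of the 6 tested members to be called, where 19.3% of the 13685 tested genes were (2637 genes). At an unadjusted p under 0.05, 3 members were higher, where the background was 24.6%, and 0 were lower, where it was 18.8%. All PBOO samples were above all normal samples for 3 members, as for 35.3% of all genes, and below them for 0 members, as for 25.0%. Over all tested genes the log2 fold change had a median of 0.12, and of 0.02 after median-ratio scaling.

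Aqp3 read 330, 228 and 299 FPKM in normal and 1019 and 525 FPKM in PBOO samples of week 5. Both PBOO samples were above all normal samples, and they differed from each other by more than the normal samples did. The log2 fold change was 1.37 (SE 0.32, 95% confidence interval 0.57 to 2.18, unadjusted p = 0.00620, limma adjusted p = 0.0276), and 1.27 after median-ratio scaling (adjusted p = 0.0432). The adjusted p was 0.0699, 0.0868 and 0.0814 without normal replicate 1, 2 or 3. Without PBOO replicate 1 the log2 fold change was 0.90 (adjusted p = 0.0477), under 2-fold, so the call was lost in each of these fits, and it held without PBOO replicate 2 (1.85, adjusted p = 0.0083). Where a PBOO sample of week 5 is left out, 1 PBOO sample remains, which is assumed to vary like the normal samples.

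Slc14a1 and Scnn1a were higher without passing the adjusted threshold. Slc14a1 read 108, 75.8 and 114 FPKM in normal and 168 and 133 FPKM in PBOO samples. Both PBOO samples were above the normal ones, with a log2 fold change of 0.61 (SE 0.22, unadjusted p = 0.0355, limma adjusted p = 0.0909) and of 0.51 after median-ratio scaling (unadjusted p = 0.0876). Scnn1a read 1.02, 4.90 and 0.896 FPKM in normal and 13.7 and 5.87 FPKM in PBOO samples. Normal replicate 2 was close to PBOO replicate 2 and apart from the other normal samples. The log2 fold change was 2.36 (SE 0.79, 95% confidence interval 0.39 to 4.32, unadjusted p = 0.0268, limma adjusted p = 0.0749), and 3.10 without normal replicate 2 (adjusted p = 0.0192). Leaving out 1 sample gave Slc14a1 an unadjusted p of 0.0547 without normal replicate 1 and 0.0656 without normal replicate 2. Scnn1a had 0.0689 without normal replicate 1 and 0.0712 without normal replicate 3. Without PBOO replicate 1 the log2 fold changes fell to 0.44 for Slc14a1 and 1.75 for Scnn1a. That fit holds 1 PBOO sample, so the spread comes from the normal samples alone.

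The other 3 genes lay on both sides of the normal samples at week 5, and the PBOO samples stood far apart. Scnn1b read 58.4, 43.5 and 45.4 FPKM in normal samples, 99.1 FPKM in PBOO replicate 1 and 17.7 FPKM in PBOO replicate 2. Its log2 fold change was -0.22 (95% confidence interval -1.93 to 1.501, limma adjusted p = 0.834), 1.02 without PBOO replicate 2 and -1.46 without PBOO replicate 1. Scnn1g read 41.9, 41.0 and 39.2 FPKM in normal samples and 109 and 38.5 FPKM in PBOO samples, and its log2 fold change was 0.67 (95% confidence interval -0.37 to 1.71, limma adjusted p = 0.273). Aqp1 read 40.9, 58.8 and 51.4 FPKM in normal samples and 95.5 and 35.9 FPKM in PBOO samples, and its log2 fold change was 0.23 (95% confidence interval -0.81 to 1.28, limma adjusted p = 0.703). PBOO replicate 1 was above and PBOO replicate 2 below every normal sample for all 3.

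The effect of PBOO differed between weeks for Aqp3 and Slc14a1. The difference of the log2 fold changes (week 5 minus week 4) was tested over all 11 samples and 11296 genes, of which 27.2% were called, and 2 of the 6 members were. At an unadjusted p under 0.05, 3 members had a positive difference, where the background was 34.6%, and 0 a negative one, where it was 15.7%. An adjusted p under 0.05 at any fold was reached by 40.0% of all genes. For Aqp3 it was 2.29 (SE 0.44, 95% confidence interval 1.32 to 3.27, limma adjusted p = 0.00309), with a range from 1.81 to 2.77 when each sample was left out. For Slc14a1 it was 1.32 (SE 0.42, 95% confidence interval 0.38 to 2.25, limma adjusted p = 0.0307), or 1.03 after median-ratio scaling, with an adjusted p of 0.0769. Leaving out normal replicate 1, PBOO replicate 2 or PBOO replicate 3 of week 4, or normal replicate 2 or PBOO replicate 1 of week 5, also raised the adjusted p of Slc14a1 to between 0.0585 and 0.0899. The difference was 1.61 for Scnn1g (limma adjusted p = 0.0701), 2.05 for Scnn1a (0.111), 0.83 for Scnn1b (0.440) and -0.72 for Aqp1 (0.346). Over all genes the median difference was 0.35, and 0.07 after median-ratio scaling. This scaling moved the unadjusted calls from 3904 higher and 1775 lower to 2539 and 2456. The weeks also differed in other ways, since 4871 genes were listed at 0 in every sample of week 4 and 403 in every sample of week 5, so levels were not tested between the weeks. Only the week 4 columns carry the word Input. Any difference in the libraries that it marks cannot be told apart from the week.

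**Figure D3:**
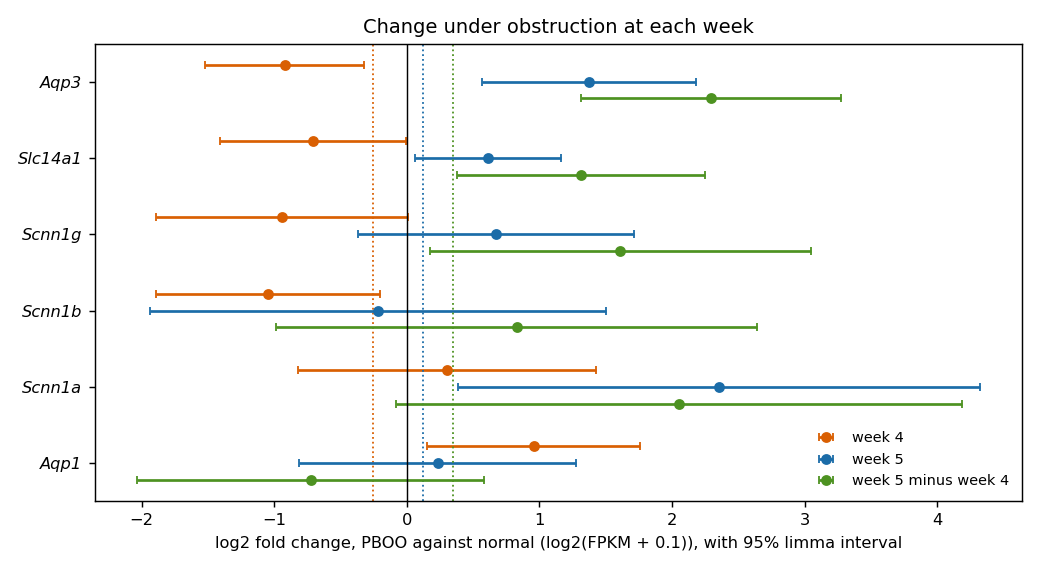
Log2 fold change of PBOO against normal at week 4 and week 5, and their difference (week 5 minus week 4), for the 6 tested genes. Bars are 95% confidence intervals from limma, and dotted lines mark the median over all tested genes in each comparison. For Aqp3 the interval is below 0 at week 4 (-1.52 to -0.32) and above 0 at week 5 (0.57 to 2.18).

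The genes were set beside the urothelial markers because the sum of these markers also differed between normal and PBOO samples. Per 1000 FPKM of urothelial markers, Aqp3 was 27.7, 33.1 and 29.0 in normal and 35.3, 22.5 and 22.9 in PBOO samples at week 4, and 25.3, 21.9 and 22.2 in normal and 56.0 and 28.7 in PBOO samples at week 5. The groups overlapped at week 4. At week 5 they did not, with the nearest samples at 28.7 and 25.3. As single genes, 6.63% of all genes lay wholly above at week 4 and 35.3% at week 5. No such share was computed for values per marker sum, and no test was run on them. Slc14a1 on the same scale was 11.9, 10.1 and 9.40 in normal and 14.2, 9.99 and 8.41 in PBOO samples at week 4, and 8.26, 7.29 and 8.49 against 9.22 and 7.25 at week 5. Its groups overlapped at both weeks. Scnn1a was 0.0862, 0.120 and 0.0910 against 0.298, 0.272 and 0.102 at week 4 and 0.0779, 0.471 and 0.0666 against 0.751 and 0.321 at week 5. The groups overlapped at both weeks for Scnn1a and for the other ENaC subunits. Aqp1 per 1000 FPKM of endothelial markers was 412, 408 and 387 in normal and 466, 829 and 1288 in PBOO samples at week 4, without overlap, and 277, 265 and 288 against 610 and 157 at week 5. Per 1000 FPKM of smooth muscle markers it was 4.69, 5.08 and 5.56 in normal and 3.04, 4.31 and 5.41 in PBOO samples at week 4, where the groups overlapped, and 1.48, 2.30 and 1.72 against 50.7 and 35.7 at week 5. The urothelial list itself did not move as 1 unit. At week 4, 18 of its 21 tested genes were lower at unadjusted p under 0.05 and 0 higher (median log2 fold change -0.73). Of all genes, 26.2% were lower and 5.76% higher (median -0.25). At week 5, 10 of 23 were higher and 7 lower (median 0.41), against 24.6% and 18.8% of all genes (median 0.12). The basal keratin gene Krt5 had the highest log2 fold change there (3.52) and the umbrella cell keratin gene Krt20 the lowest (-6.47). The part of the cell mixture in the differences of the 7 genes was not tested.

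**Figure D4:**
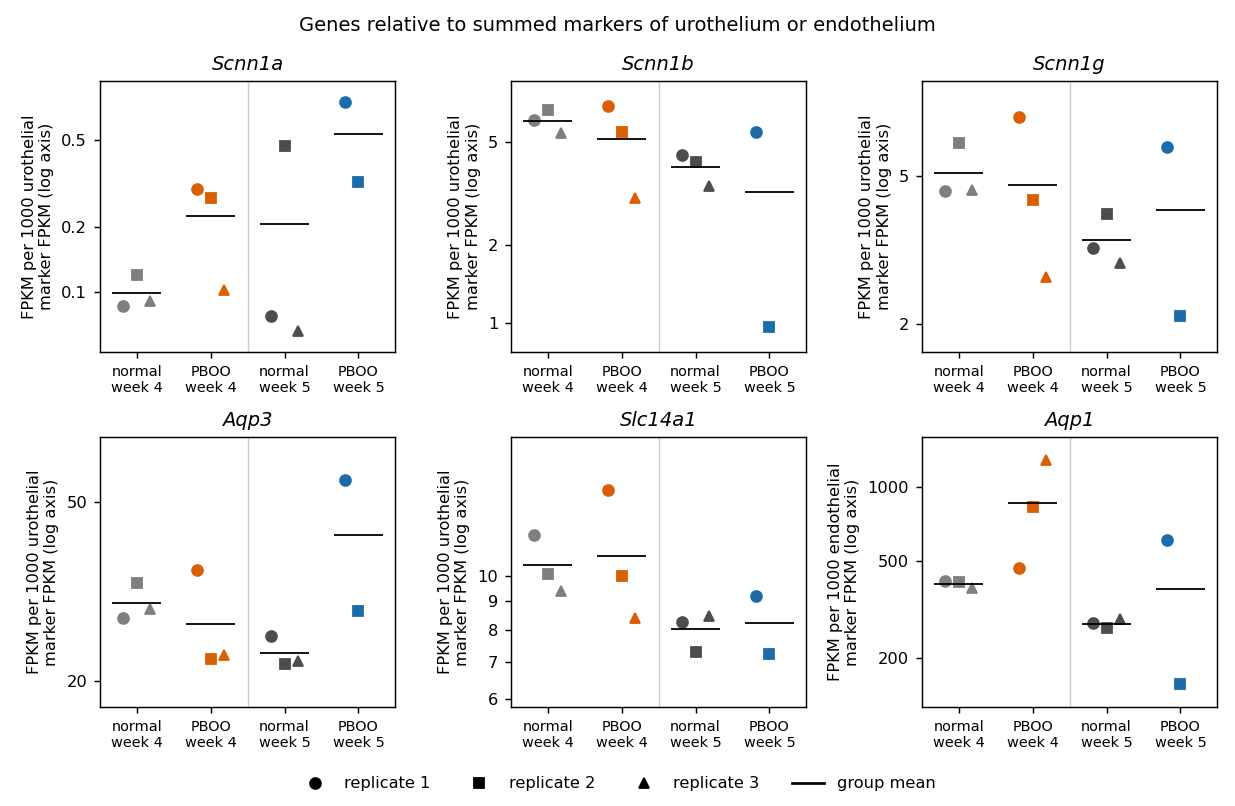
FPKM of 6 genes per 1000 FPKM of summed urothelial markers (endothelial markers for Aqp1) in each sample, on log axes, with the group mean as a line. Aqp3 overlaps between normal and PBOO samples at week 4 and is higher in both PBOO samples of week 5 (56.0 and 28.7 against 21.9 to 25.3). No share of all genes was computed on this scale, and it was not tested.

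The subunits of ENaC did not move in 1 ratio. The ratio of Scnn1b to Scnn1a was 70.4, 55.5 and 59.5 in normal and 23.1, 20.1 and 29.8 in PBOO samples at week 4. At week 5 it was 57.5, 8.87 and 50.7 in normal and 7.26 and 3.01 in PBOO samples. All PBOO samples lay below all normal samples at both weeks, and normal replicate 2 of week 5 was nearest to them. Scnn1a, by which this ratio divides, was low, from 0.557 to 2.10 FPKM at week 4 and from 0.896 to 13.7 FPKM at week 5. Taken singly, 34.9% of all genes lay wholly below at week 4 and 25.0% at week 5, and no such share was computed for ratios. No test was run on these ratios. The ratio of Scnn1b to Scnn1g was 1.09 to 1.34 in normal and 0.959 to 1.27 in PBOO samples at week 4, where the groups overlapped. At week 5 it was 1.06 to 1.39 in normal samples, 0.911 in PBOO replicate 1 and 0.458 in PBOO replicate 2.

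Of 10 listed genes of proteases that cleave ENaC and their inhibitors, 7 of 9 tested were higher and 1 lower at unadjusted p under 0.05 at week 5, where 24.6% of all genes were higher and 18.8% lower. Their median log2 fold change was 0.80, against 0.12 over all genes. At week 4, 1 of 8 was higher and 3 lower, where 5.76% of all genes were higher and 26.2% lower, and the median was -0.47, against -0.25. Group levels are given as mean ± SD (n = 3, and n = 2 for PBOO at week 5). Furin, the proprotein convertase that cuts α and γ ENaC, rose from 50.1 ± 4.04 to 145 ± 5.16 FPKM at week 5 (log2 fold change 1.54, limma adjusted p = 0.000936). Plau, the urokinase gene, rose from 16.8 ± 8.01 to 43.8 ± 8.89 FPKM (1.47, adjusted p = 0.0424), with an adjusted p of up to 0.140 when a sample was left out. Tmprss4, a membrane serine protease, rose from 0.00973 ± 0.0168 to 22.9 ± 23.5 FPKM at week 5 (adjusted p = 0.00259), and its log2 fold change of 7.19 depends on the pseudocount. Serpine2, which inhibits serine proteases, went from 15.4 ± 6.63 to 41.6 ± 19.4 FPKM at week 4 (1.43, adjusted p = 0.101) and fell from 4.33 ± 0.255 to 1.47 ± 0.727 FPKM at week 5 (-1.58, adjusted p = 0.0174). Prss8, the channel-activating protease prostasin, was chosen after its values were seen. It went from 58.5 ± 5.59 to 30.9 ± 7.04 FPKM at week 4 (-0.94, adjusted p = 0.0538) and from 86.0 ± 10.1 to 75.6 ± 29.6 FPKM at week 5 (-0.24, adjusted p = 0.530). The inhibitor genes Spint1 and Spint2 were also chosen after their values were seen. Their log2 fold changes were -0.69 and -0.77 at week 4 (adjusted p = 0.0711 and 0.0715). At week 5 both were higher, unlike Serpine2, with 0.72 and 0.80 (adjusted p = 0.0191 and 0.0125).

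The genes of hormone and ubiquitin control of ENaC were mixed. Of 17 genes, 1 of 16 tested was higher and 3 lower at week 4 (median -0.15), against 5.76% and 26.2% of all genes. At week 5, 2 of 17 were higher and 6 lower (median -0.48), against 24.6% and 18.8% of all genes. At week 5 the kinase gene Wnk4 rose from 17.2 ± 1.54 to 82.5 ± 42.9 FPKM (2.15, limma adjusted p = 0.00681). The deubiquitinase genes Usp2 and Usp10 fell, with log2 fold changes of -2.78 and -1.12 (adjusted p = 0.00555 and 0.0104), and Tsc22d3, the glucocorticoid-induced leucine zipper gene, fell by 1.47 (adjusted p = 0.0484), with an adjusted p of up to 0.155 when a sample was left out. Nedd4l, the ubiquitin ligase of ENaC, and Sgk1, the kinase that restrains it, were chosen after their values were seen. At week 5 Nedd4l was 31.3 ± 6.71 in normal and 18.9 ± 4.34 FPKM in PBOO samples (-0.73, adjusted p = 0.0627), and Sgk1 was 16.7 ± 0.946 and 28.2 ± 4.72 FPKM (0.75, adjusted p = 0.0157). At week 4 Sgk1 went the other way, with 24.2 ± 4.34 and 16.1 ± 0.638 FPKM (-0.57, adjusted p = 0.0780). Nedd4l was then 25.8 ± 3.83 and 22.6 ± 3.66 FPKM (-0.20, adjusted p = 0.417).

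Among the 13 sodium pump and FXYD genes, 1 of 11 tested was higher and 5 lower at week 4 (median -0.19), against 5.76% and 26.2% of all genes, and 3 were higher and 5 lower at week 5 (median -0.17), against 24.6% and 18.8%. Fxyd6, a pump regulator, was higher at week 4 (log2 fold change 2.10, limma adjusted p = 0.0559) and fell at week 5 (-3.25, adjusted p = 0.0159). Atp1b1, Atp1b3 and Fxyd3 rose at week 5, by 2.36, 1.14 and 1.55 on the log2 scale (adjusted p = 0.00379, 0.0279 and 0.000735), while Fxyd1, Fxyd7 and Atp1b2 fell, with -3.66, -3.37 and -2.96 (adjusted p = 0.000841, 0.0236 and 0.000289). At week 4 Atp1b2 and Fxyd7 had log2 fold changes of -1.14 and -1.496 (adjusted p = 0.102 and 0.118). Smooth muscle and glial marker sums were lower in the same PBOO samples of week 5, and their part in these differences was not tested.

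The remaining lists are read against the same shares of all genes. Of 14 other sodium, chloride and potassium transport genes, 7 were tested at week 4 (0 higher, 1 lower, median -0.55) and 8 at week 5 (2 higher, 1 lower, median 0.11), and the potassium channel gene Kcnma1 fell from 7.57 ± 0.459 to 0.224 ± 0.105 FPKM at week 5 (-4.60, limma adjusted p = 0.000402). Of 11 other aquaporin and urea transporter genes, 9 were in the table, of which Aqp7 and Aqp11 were tested at week 4 and Aqp11 at week 5, with 0 called and 0 at an unadjusted p under 0.05. Of 14 genes of vasopressin and cAMP control, 12 were tested at week 4 (0 higher, 3 lower, median -0.37) and 11 at week 5 (3 higher, 3 lower, median 0.11). The vasopressin receptor gene Avpr1a had a log2 fold change of -1.18 at week 4 (adjusted p = 0.146) and fell by 3.96 at week 5 (adjusted p = 0.000289), the aldose reductase gene Akr1b1 fell by 1.19 (adjusted p = 0.0114) and the adenylyl cyclase gene Adcy6 rose by 1.004 on the log2 scale (adjusted p = 0.0145). The smooth muscle sum was lower in the same PBOO samples of week 5. Its part in the falls of Kcnma1 and Avpr1a was not tested. Of the 19 genes of these lists named as called at week 5, 10 were called whichever sample was left out, and 9 lost the call in at least 1 such fit (Tsc22d3, Usp10, Serpine2, Plau, Fxyd6, Fxyd7, Atp1b3, Akr1b1 and Adcy6).

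Across the 11 samples, with the mean of each week removed, Pearson r described how alike the genes were. The points share the groups and the cell mixture, so no p is given. Scnn1b and Scnn1g had r = 0.855, Aqp3 and Slc14a1 0.890, Aqp3 and Scnn1g 0.860 and Scnn1g and Slc14a1 0.842. Scnn1a and Scnn1b had 0.170, and Aqp1 and Slc14a1 -0.545. Among 9906 genes, the most alike were Plpp2 (0.986), Mapkapk3 (0.985) and Lmo7 (0.982) for Aqp3, Pwp2 (0.986), Dis3l2 (0.984) and Rnf208 (0.982) for Slc14a1, and Adam9 (0.919), Sh3bp5l (0.913) and Ptk2 (0.882) for Aqp1. Tspan1 (0.932) and Nlrx1 (0.924) were among the 3 most alike for Scnn1a. For the other ENaC genes they were Btbd1 (0.974), Pik3ap1 (0.973) and Sesn2 (0.970) for Scnn1b, and Nphp4 (0.984), Sidt1 (0.982) and Cnnm3 (0.978) for Scnn1g.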

How the data were processed

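RNA was sequenced from 11 rat bladder tissue samples. Per the labels and methods, the authors made TruSeq libraries, read them in pairs on a HiSeq4000, trimmed them, mapped them with HISAT2, assembled transcripts with StringTie and deposited FPKM values for 18507 genes. The submitters' processing notes name mm10, a mouse build, although the animals are rats; the table has 2367 symbols of the rat style and 1 of the mouse style. Strand and annotation are not given in the sources used here. The table holds no counts, so sequencing depth is unknown and no counting error is given. Column sums were 424961 to 564343 FPKM, and 0 columns belonged to no sample.

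Groups were taken from the labels. Values were compared as log2(FPKM + 0.1), which understates changes of low genes, with limma 3.58.1 in R 4.3.3 (lmFit, eBayes with a trend), leaving out genes whose mean over the compared samples was under 0.5 FPKM. Weeks were fitted separately and their difference as an interaction. Benjamini-Hochberg adjustment was over all genes tested. The fit was tested on simulated data. The members and lists were chosen with earlier results of these data known. Listed pathway genes were named at unadjusted p under 0.05 with a 2-fold change and a mean of at least 1 FPKM, at most 5 per list and direction, and the 3 most alike genes per member by Pearson r, among genes above 0 in all samples that averaged 1 FPKM or more in each week. For markers, the highest and lowest of a list were named. Values of a few genes that met these rules were left out. Alternatives were other pseudocounts, no filter, median-ratio scaling, quantile normalization, no trend, a replicate block, both weeks in one fit and leaving out each sample. Other steps used pandas 2.3.3 and numpy 2.4.6 under Python 3.11.15, with plots drawn with matplotlib 3.10.9.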

Additional observations from a re-analysis of the deposited data

Results flagged for a closer look

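The effect of PBOO differed between weeks by a test of the difference itself (limma interaction, adjusted p under 0.05) for the following genes, given as the log2 fold change at week 5 minus that at week 4. Among the 7 genes these were Aqp3 (2.29) and Slc14a1 (1.32). Among ENaC proteases and inhibitors the difference was 7.21 for Tmprss4, 1.76 for Plau, 1.49 for Furin and -3.002 for Serpine2. Among genes of hormone and ubiquitin control it was 3.11 for Wnk4, -2.17 for Usp2 and -1.02 for Usp10. Among pump and FXYD genes it was 2.50 for Fxyd3, 1.97 for Atp1b1, 1.28 for Atp1b3, -1.82 for Atp1b2, -3.46 for Fxyd1 and -5.35 for Fxyd6. It was -4.60 for Kcnma1, 1.44 for Adcy6, -0.90 for Akr1b1 and -2.78 for Avpr1a. Of these 19 differences, 16 kept an adjusted p under 0.05 whichever sample was left out. Those of Slc14a1, Usp10 and Akr1b1 did not, with adjusted p of up to 0.0899, 0.153 and 0.139. Of all genes tested, 40.0% had an adjusted p under 0.05 for this difference. The groups, of 2 or 3 samples, were too small for a test of single outlying samples.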

How the results depend on the processing

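At week 4 the number of genes called was 42, and 0 without a filter on low values, 0 after median-ratio scaling, 0 without the trend, 85 after quantile normalization, 242 with both weeks in one fit and 0 to 719 when a sample was left out (20 without normal replicate 1, 719 without PBOO replicate 1). Leaving out a sample gave 1679 to 3503 genes against 2637 at week 5 and 2678 to 3459 against 3073 for the difference between weeks. The number of the 7 genes with an unadjusted p under 0.05 then ranged from 1 (without normal replicate 1) to 5 against 4 at week 4, from 1 (without normal replicate 1) to 6 (without PBOO replicate 2) against 3 at week 5 and from 2 to 5 (without week 5 PBOO replicate 2) against 3 for the difference. Leaving out a sample turned the direction of Scnn1a at week 4 (log2 fold change -0.045 to 0.83, the lowest without PBOO replicate 1). At week 5 it turned that of Scnn1b (-1.46 to 1.02, the highest without PBOO replicate 2), Scnn1g (-0.078 to 1.42) and Aqp1 (-0.47 to 0.94), with the lowest values without PBOO replicate 1. It also turned the difference between weeks of Scnn1b (-0.41 to 2.07, the lowest without week 5 PBOO replicate 1). The cause was not tested. Outside the fits that leave out a sample, 125 fits of single members kept their direction and side of the threshold, 2 newly passed and 11 no longer did. FPKM without counts leaves the depth limit of Aqp4 and Scnn1a unknown.

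The same replicate numbers recur in the sample titles of each group, and the labels do not say whether they pair the samples. The column names number the PBOO samples otherwise. Those of week 4 share no number with the normal columns, and PBOO replicate 2 of week 5 has the number 3. At week 4 deviations of same-numbered samples correlated at 0.154, -0.02 and 0.232, and those of different numbers at -0.210 to 0.094. Not every sample was most like its own number. At week 5 the same-numbered values were -0.0008 and 0.124, where the deviations of the 2 PBOO samples mirror each other. By column number, PBOO replicate 2 would match normal replicate 3, with which it correlated at -0.161. These correlations cannot decide whether the samples were paired. With a replicate block by the title numbers, 55, 2319 and 2826 genes were called at week 4, at week 5 and for the difference. Then 5, 3 and 3 of the 7 genes had an unadjusted p under 0.05, with Scnn1g at week 4 at 0.0255.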
